A study of Capra hircus with 20 samples.

Results

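Small RNA of the hypothalamus of Jining grey goats was examined for a set of immune-linked miRNAs, those most often read as products of microglia, macrophages and lymphocytes. The set was chosen by name: every row of the miRNA table called miR-146a, miR-146b, miR-155, miR-223, miR-142, miR-150, miR-21 or miR-342, in any arm. It found 11 of the 683 rows, from 7 of the 8 hairpins, and miR-142 was not analysed here. Of the 11 rows, 10 passed the filter on low values (at least 1 RPM in at least 5 of the 20 libraries), and miR-21-3p did not. RPM is the number of reads of a miRNA per 1000000 miRNA reads of its library; it is not divided by length, and mature miRNAs are all short RNAs of like length. The animals were 1, 60, 120 and 180 days old, with 5 biological replicates per age, housed alike and fed without restriction, and no treatment or genotype is given in the labels. The study asked how hypothalamic miRNAs change after birth and through sexual development. Whole hypothalamus was used, so fewer cells of a type and less RNA per cell cannot be told apart, and no protein-coding marker of microglia was measured.

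A miRNA hairpin is cut into a 5p and a 3p arm, and usually 1 arm, the guide, is kept in Argonaute while the other is degraded. Microglia are the resident macrophages of the brain. miR-155 and miR-21 are induced by inflammatory signals, and miR-155 promotes the inflammatory response. miR-146a and miR-146b are induced by NF-kB and repress IRAK1 and TRAF6, proteins of the Toll-like receptor signalling pathway, which closes a negative feedback loop. miR-223 is a miRNA of granulocytes and other myeloid cells, and miR-150 is abundant in mature lymphocytes and represses MYB. miR-342 is also found in neurons and other cells, and miR-21 in astrocytes, vessels and many dividing cells, so the set is not particular to microglia. In the RefSeq gene table of goat assembly ARS1.2, 7 hairpins were matched by name. The gene MIR342 lies within EVL, and the nearest protein-coding gene to MIR21 is VMP1. No other miRNA gene lies within 10 kb of any of the 7, so none of the set is part of a miRNA cluster in that table. The build behind the deposited values is not given in the sources used here, so no coordinates are printed, and no mature sequence is printed because no file used here holds one.

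The libraries held 4017937 to 8324880 miRNA reads. Day 1 replicate 2 was the shallowest and the least like the others, with a median Spearman correlation of 0.873 across miRNAs. Next came day 1 replicate 3 at 0.918, and the highest was 0.965. Markers of brain tissue were present at every age: the 6 neuron rows measured (of miR-128, miR-129, miR-137 and miR-218) summed to between 7587 and 72473 RPM per library, led by miR-128-3p. Vessel miRNAs, led by miR-143-3p, summed to between 30470 and 221298 RPM, with a mean above that of the neuron rows at every age. On day 1 miR-143-3p alone averaged 79640 of 90350 RPM. The neuron miRNAs miR-124 and miR-138 were not analysed here, so the sums do not compare amounts of vessels and neurons. Those of multiciliated cells and choroid plexus summed to between 1514 and 11306 RPM, and those of muscle to between 263 and 3640 RPM. The liver miRNA miR-122 ran from 2.66 to 2540 RPM. The red cell miRNAs, led by miR-451-5p in level, summed to between 90.5 and 1552 RPM. The labels give no source for the replicates beyond calling them biological. The p-values of the age comparisons therefore judge a difference against the spread between these samples.

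The set made up 1.37% of miRNA reads on average, and its levels spanned several orders of magnitude. miR-21-5p alone held 75.6% of the reads of the set and ranked 17 of 683 rows by mean level, with a median of 8297 RPM over the 20 libraries (3005 to 53369.9). miR-146b-5p ranked 53, with a median of 1067 RPM (239.5 to 7208). miR-342-3p ranked 60, with a median of 1258 RPM (483 to 2262). The set thus held 3 abundant guides. miR-150 had a median of 242 RPM (19.5 to 1498) and miR-155-5p one of 143 RPM (68.1 to 365). Lower still were miR-146a at a median of 21.2 RPM, miR-146b-3p at 14.8 RPM and miR-342-5p at 5.85 RPM. The myeloid miR-223 was the least abundant hairpin, with medians of 2.16 RPM for its 3p arm and 1.93 RPM for its 5p arm. miR-223-3p rested on 2 to 74 reads per library and miR-223-5p on 3 to 56, against a floor of 3 reads, which is worth 0.360 to 0.747 RPM. miR-21-3p, the passenger strand of miR-21, was listed at 0 in 13 of 20 libraries and reached 0.748 RPM (5 reads) at most. Within single libraries the order by mean did not hold for every pair of neighbours. miR-146b-5p exceeded miR-342-3p in 9 of 20 libraries, miR-146a exceeded miR-146b-3p in 12, and miR-223-3p exceeded miR-223-5p in 13. miR-150 exceeded miR-155-5p in 17 of 20, and miR-342-3p exceeded miR-150 in 20 of 20. The order compares ligated and amplified reads and carries any bias of the library kit for single sequences.

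**Figure D1:**
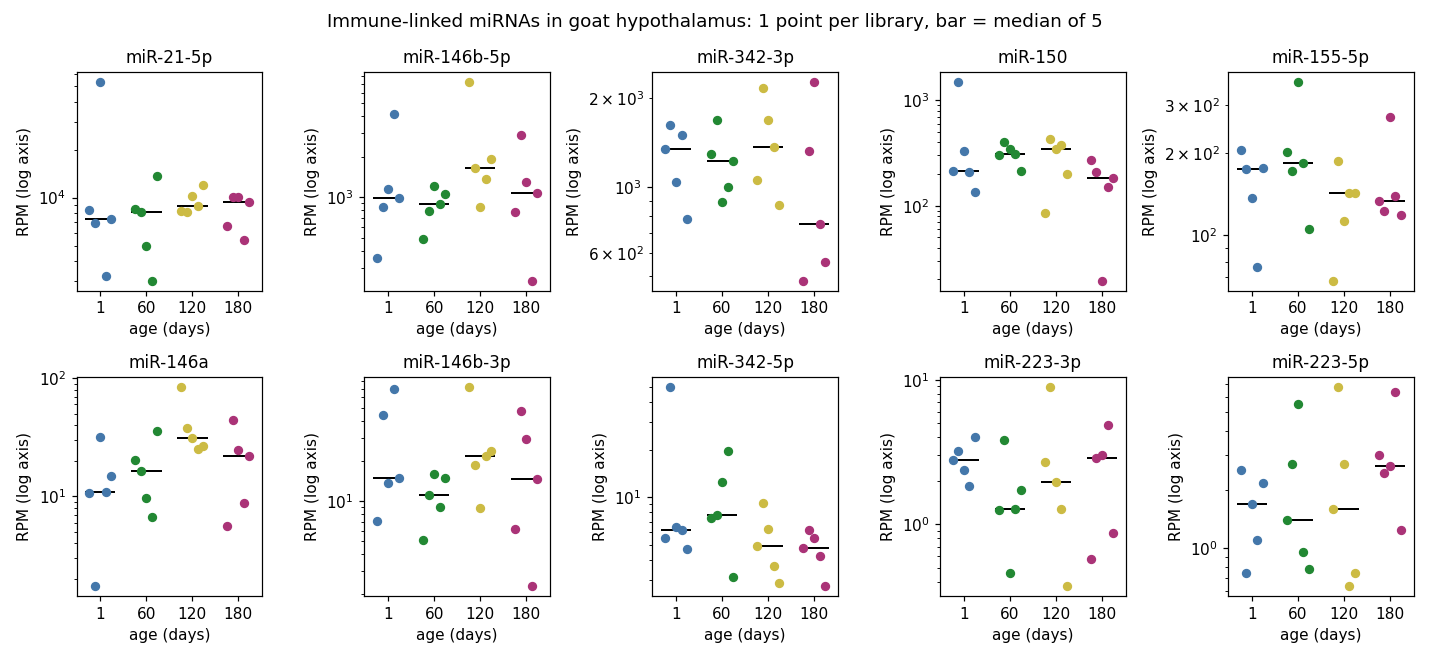
Level of the 10 miRNAs that passed the filter, in RPM on a log axis, against age in days. Each point is 1 library, the bar is the median of 5, and the ages overlap in every panel; single high libraries stand out for miR-21-5p, miR-150 and miR-342-5p on day 1 and for miR-146b-5p and miR-146a on day 120.

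No member of the set passed the test for a change with age. limma (two-sided, Benjamini-Hochberg over all 414 miRNAs tested, on log2(RPM + 1)) called 0 of 10 over the 4 ages, where 8 of 414 (1.93%) were called in all. It also called 0 of 10 between day 1 and day 60, with 3.86% called in all, and 0 of 10 between day 1 and day 120 and between day 1 and day 180, each with 3.38% in all. For day 60 to day 120, day 120 to day 180 and day 60 to day 180 it called 0 of 10, with 0% in all. At an unadjusted p under 0.05, limma found 0 of 10 members over the 4 ages (16.9% of all) and 1 of 10, miR-146a, for day 120 against day 1 (22.5% of all). It found 0 of 10 for day 60 against day 1 (21% of all) and 0 of 10 for day 180 against day 1 (20.8% of all). Between the older ages it found 0 of 10 in each pair: 3.14% of all miRNAs had such a p from day 60 to day 120, 0.725% from day 120 to day 180, and 4.83% from day 60 to day 180. edgeR and DESeq2 on the recovered reads also called 0 of 10 in each of the 7 comparisons, although over all miRNAs they called more than limma did. Over the 4 ages the calls among all 414 were 39 (9.42%) by edgeR with TMM, 53 (12.8%) by edgeR on library size alone and 90 (21.7%) by DESeq2. Between pairs of ages these shares ran from 0% to 13.8%, from 0% to 14.98% and from 0% to 20.8%. Their smallest adjusted p was 0.0646, from DESeq2 for day 120 against day 1. From day 60 to day 120 the members at an unadjusted p under 0.05 numbered 0 by limma, 3 by edgeR with TMM (7.25% of all), 1 by edgeR on library size alone (4.59% of all) and 4 by DESeq2 (10.4% of all). Over the 4 ages they numbered 0 by edgeR with TMM (27.5% of all), 0 on library size alone (26.3%) and 1 by DESeq2 (32.4%). In that order, day 60 against day 1 gave 0 (27.3%), 0 (26.1%) and 1 (29.95%). Day 120 against day 1 gave 1 (27.1%), 2 (28.99%) and 1 (28.5%). Day 180 against day 1 gave 0 (25.6%), 2 (28.7%) and 0 (28.3%). Day 180 against day 60 gave 0 (6.28%), 0 (5.31%) and 1 (7.49%). Day 180 against day 120 gave 0 by each (1.45%, 1.45% and 2.90%). Groups of 5 libraries without overlap were found for 0 of 10 members in each of the 6 pairs of ages. Over all tested miRNAs the share without overlap from day 1 was 3.14% at day 60, 7.25% at day 120 and 3.62% at day 180. It was 0.966% from day 60 to day 120, 0.725% from day 120 to day 180 and 1.93% from day 60 to day 180.

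These results leave room for changes of moderate size and for larger ones. The standard error of a log2 fold change in the set ran from 0.42 to 0.68, so the 95% confidence interval reached 1.81-fold to 2.64-fold to either side of the estimate. Around the larger estimates the ends lay further out. For miR-146a from day 1 to day 120 the interval ran from 1.37-fold to 7.96-fold. For miR-150 from day 1 to day 180 it ran from 0.160-fold to 1.01-fold. A p above the threshold therefore does not show that levels stayed equal. The median log2 fold change of the 10 members was -0.05 from day 1 to day 60 and 0.04 from day 1 to day 120. From day 1 to day 180 it was -0.26, beside -0.25 over all 414 miRNAs. Quantile scaling gave -0.13 for the members beside -0.00 for all, and median-of-ratios scaling gave -0.08 beside -0.03. Differences between the age means made up between 5.59% (miR-21-5p) and 32.0% (miR-146a) of the variance of log2(RPM + 1) in the set. The median over all tested miRNAs was 18.0%. Means of small groups differ through random spread alone, so these shares by themselves do not show an effect of age.

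**Figure D2:**
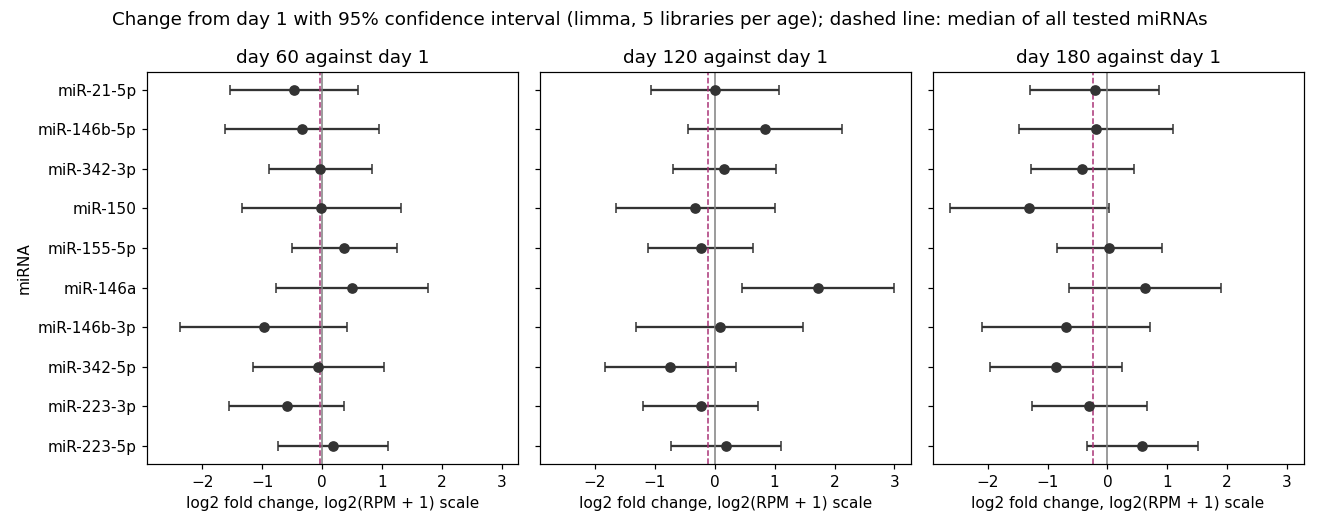
Log2 fold change from day 1 of each miRNA on the log2(RPM + 1) scale, with its 95% confidence interval from limma (5 libraries per age); the dashed line is the median of all 414 tested miRNAs. All intervals include 0 except that of miR-146a on day 120, which runs from 0.45 to 2.99 and has an adjusted p of 0.114.

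miR-146a, the feedback repressor of Toll-like receptor signalling, had the largest estimated rise. On day 1 its 5 libraries held 10.7, 1.74, 31.6, 10.8 and 14.7 RPM. On day 60 they held 20.3, 16.3, 9.65, 6.72 and 36.1 RPM. On day 120 they held 84.2, 37.7, 31.1, 25.1 and 26.6 RPM, so that 3 of the 5 lay below the highest of day 1. On day 180 the values were 5.59, 44.4, 24.6, 8.86 and 22.1 RPM, again across the range of the younger ages. The means were 13.9 ± 10.95, 17.8 ± 11.5, 40.9 ± 24.7 and 21.1 ± 15.4 RPM (SD, n = 5 each). The log2 fold change from day 1 to day 120 was 1.72 (SE 0.62, limma unadjusted p = 0.00981, adjusted p = 0.114). All 5 day-120 libraries lay above the mean of day 1. With quantile scaling the call was made, at 1.84 (adjusted p = 0.0398), while median-of-ratios scaling, edgeR and DESeq2 made none. Leaving out single libraries gave 1.21 (without day 1 replicate 2) to 2.10 (without day 1 replicate 3). Day 1 replicate 2 rests on 7 reads of miR-146a, the fewest of the 20 libraries. From day 120 to day 180 the estimate was -1.09 (adjusted p = 0.997).

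miR-146b-5p (chi-miR-146b-5p in the deposited table), the far more abundant paralog of miR-146a, had 17.4% of its variance between ages, near the median of all tested miRNAs, and the rest between libraries of 1 age. On day 1 it measured 356, 850.4, 1160.2, 4143 and 988 RPM. On day 60 it measured 493, 796, 1216, 891 and 1060.3 RPM, the smallest SD of the 4 ages. The day-120 libraries held 7208, 1659, 845, 1367 and 1909 RPM. On day 180 the values were 775, 2881, 1293, 239.5 and 1073 RPM, and all 4 ages overlapped. Replicate 1 of day 120 alone held 0.721% of its library's miRNA reads (95% Wilson interval 0.715% to 0.727%, counting error only), or 4.77 times the median of the other 4. The age means were 1499.6 ± 1508, 891 ± 275, 2598 ± 2608 and 1252 ± 992 RPM (SD, n = 5 each). From day 60 to day 120 the log2 fold change was 1.17 (SE 0.63, limma adjusted p = 0.913), and without that library 0.70. From day 120 to day 180 it was -1.03 (adjusted p = 0.997).

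The 3p arm of miR-146b followed its guide from library to library at a level near that of miR-146a. Its age means were 29.8 ± 26.4, 11.2 ± 4.42, 29.0 ± 24.6 and 19.97 ± 18.6 RPM (SD, n = 5 each). Relative to the mean of each age, the 2 arms had a Pearson's r of 0.906 over the 20 libraries (permutation within age, p = 4e-05, adjusted p = 0.00016 over 4 pairs) and a Spearman's rho of 0.839 (permutation p = 0.00018, adjusted p = 0.00072). Without the 2 libraries farthest from the median, day 1 replicate 4 and day 120 replicate 1, r was 0.873 (permutation p = 0.00022). Day 1 replicate 4, day 120 replicate 1 and day 180 replicate 2 were high in both arms, and day 180 replicate 4 was low in both. miR-146a, the product of another gene, gave r = 0.434 with miR-146b-5p (permutation p = 0.0999, adjusted p = 0.0999) and rho = 0.501 (permutation p = 0.0422, adjusted p = 0.0845). Without the same 2 libraries r was 0.397 (permutation p = 0.187).

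The ratio of miR-146b-5p to miR-146a was widest among newborns. It was 33.3, 488, 36.8, 382 and 67.1 on day 1, and ran from 24.3 to 133 on day 60, from 27.1 to 85.6 on day 120 and from 27.0 to 139 on day 180. The 2 high newborns were day 1 replicate 2, where miR-146a was low, and day 1 replicate 4, where miR-146b-5p was high. The mean log2 ratio was 6.77 on day 1 and 5.84 on day 180, a difference of -0.93 (exact permutation test, two-sided, p = 0.349, chosen after the values were seen). Both paralogs carry nearly the same sequence, so reads could have been split between them by the mapping.

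miR-21-5p, a guide strand raised in many injured or dividing tissues, ran from 3005 to 13732 RPM in 19 libraries and stood far above that range in 1. The day-1 libraries held 8337, 6934, 53369.9, 3196 and 7375 RPM. On day 60 the values were 8518, 8101, 4986, 3005 and 13732 RPM, and on day 120 they were 8257, 8117, 10188, 8869.7 and 11991 RPM. On day 180 they were 6623, 10140.5, 10104, 5427 and 9329.6 RPM, within the range of the other ages. Day 1 replicate 3 stood 7.46 times above the median of the other 4 newborns. There miR-21-5p took 5.34% of all miRNA reads (95% Wilson interval 5.32% to 5.35%, counting error only), or 380558 reads. The mean of day 1 was 15842 ± 21069 RPM (SD, n = 5), and 6461 ± 2254 (SD, n = 4) without that library. The means of the later ages were 7668 ± 4081, 9485 ± 1623 and 8325 ± 2166 RPM (SD, n = 5 each). The direction of the change from day 1 to day 180 rested on this library: the log2 fold change was -0.22 (SE 0.52, limma adjusted p = 0.856) with it and 0.41 without it. From day 1 to day 60 the value was -0.47 with it and 0.16 without it.

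The same newborn library was also the highest of its age in the red cell marker miR-451-5p. It held 1531 RPM, against 86.3 to 457 RPM in the other 4 newborns. Relative to the mean of each age, miR-21-5p and miR-451-5p gave r = 0.680 over 20 libraries (permutation within age, p = 0.0267, adjusted p = 0.267 over 10 members) and rho = 0.266 (permutation p = 0.307, adjusted p = 0.925). Without day 1 replicates 3 and 4, the 2 farthest from the median, r was 0.0558 (permutation p = 0.775), so the relation rested on those libraries. None of the 10 members passed. For the other 9, r ran from -0.105 for miR-146b-3p to 0.273 for miR-150, with adjusted p of 0.775 or more by permutation. The lymphocyte miRNA miR-150 gave rho = 0.459 (permutation p = 0.0647, adjusted p = 0.647). For day 1 replicate 3 the part of blood or of vessels in the level of miR-21-5p was not tested.

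**Figure D3:**
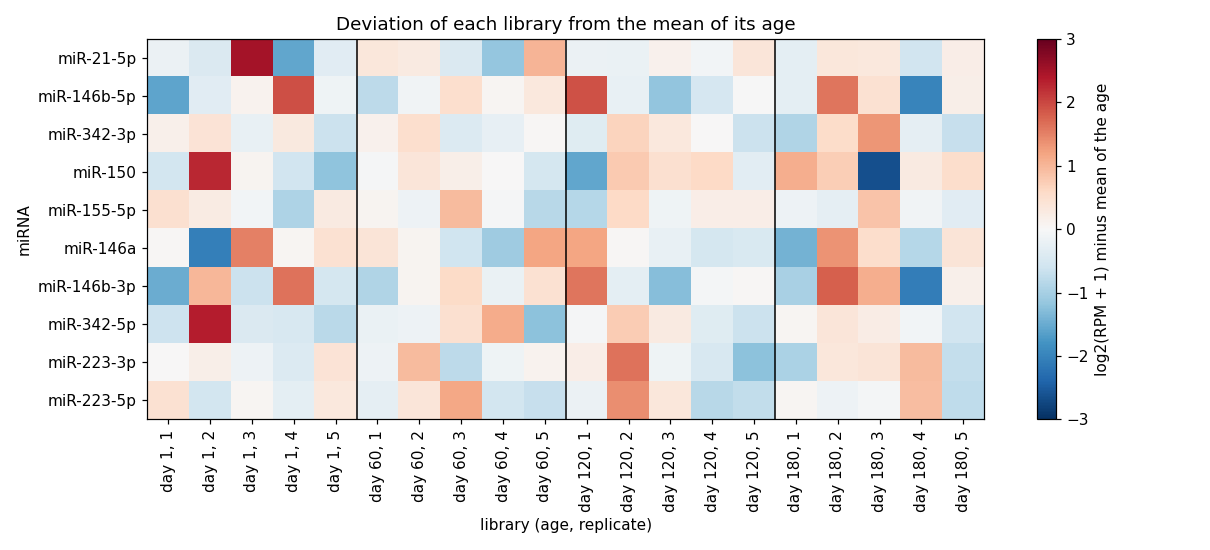
Deviation of log2(RPM + 1) of each library from the mean of its age, for the 10 miRNAs (rows) and the 20 libraries (columns, by age and replicate). Red is above and blue below the age mean; the strongest cells are miR-21-5p in day 1 replicate 3, miR-150 and miR-342-5p in day 1 replicate 2, and miR-150 in day 180 replicate 3, which is low.

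miR-150, the lymphocyte miRNA, had the lowest mean in the oldest animals. Its day-1 libraries held 212, 1498, 329.6, 210.2 and 135 RPM. Those of day 60 held 302, 399.7, 347, 310.3 and 215 RPM, and those of day 120 held 84.5, 432, 349, 375 and 200.1 RPM. On day 180 the values were 269, 209.8, 19.5, 151 and 182 RPM, so that the oldest overlapped every younger age. The means were 477 ± 575, 315 ± 67.7, 288 ± 142 and 166 ± 92.8 RPM (SD, n = 5 each). The log2 fold change from day 1 to day 180 was -1.31 (SE 0.65, limma unadjusted p = 0.0529, adjusted p = 0.246), and from day 60 to day 180 it was -1.29 (adjusted p = 0.860). Without day 180 replicate 3, which held 19.5 RPM from 110 reads, the first became -0.65. The newborn mean rested on replicate 2, at 7.10 times the median of the other 4. Without it the mean of day 1 was 222 ± 80.2 RPM (SD, n = 4).

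miR-155-5p, which promotes inflammatory signalling, was among the steadiest of the set. It ran from 76.3 to 205 RPM on day 1 (median 174), from 105 to 365 on day 60 (median 184), from 68.1 to 187 on day 120 (median 142) and from 118 to 271 on day 180 (median 134). All 4 ages overlapped, and the estimates ran from -0.61 (day 120 against day 60) to 0.37 (day 60 against day 1) on the log2 scale. The lowest limma adjusted p of its 6 contrasts was 0.671. Its spread within an age was 0.56 log2 units, which placed it at percentile 15.2 of all 414 tested miRNAs. By the same measure miR-342-3p stood at percentile 19.6, while miR-146b-3p at 90.1, miR-150 at 87.7 and miR-146b-5p at 85.7 were among the more variable.

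The gene of miR-342 lies within EVL, an actin regulator, and its 3p arm is the abundant one. miR-342-3p held 1341, 1620.2, 1039, 1492 and 779 RPM on day 1 and 1292, 1678, 889, 1003 and 1224 RPM on day 60. On day 120 it held 1059, 2150.1, 1679, 1368 and 867 RPM, and on day 180 it held 483, 1323, 2262, 750.2 and 557 RPM. The oldest group therefore contained both the lowest and the highest library of all 20. Its median on day 180 was 750.2 RPM, against 1341, 1224 and 1368 RPM at the younger ages. The log2 fold change from day 120 to day 180 was -0.58 (SE 0.42, limma adjusted p = 0.997) and from day 1 to day 180 -0.42 (adjusted p = 0.591). miR-342-5p measured 14.6 ± 19.8, 10.04 ± 6.31, 5.37 ± 2.47 and 4.67 ± 1.304 RPM (SD, n = 5 each). Its newborn mean rested on replicate 2 with 50.02 RPM, while the other 4 newborns held 4.71 to 6.45 RPM. From day 1 to day 180 the value was -0.86 (adjusted p = 0.374), and without that library -0.27.

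Day 1 replicate 2 differed from the other newborns in many miRNAs besides miR-150 and miR-342-5p. It was a high outlier of its age by Dixon's criterion in 19.8% of the 414 tested miRNAs, against 0.242% to 7.005% in the other 4 newborns. With this library and day 1 replicate 3 both left out, a setting chosen after seeing the data, limma called 0 of 10 members in each of the 7 comparisons. The share called over all miRNAs in that setting is not given here, and fewer newborns lower the power. This count therefore says nothing particular of the members.

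miR-223, the myeloid hairpin, was close to the floor at every age. Its 3p arm averaged 2.84 ± 0.822, 1.71 ± 1.27, 3.04 ± 3.38 and 2.43 ± 1.75 RPM, and its 5p arm 1.64 ± 0.730, 2.27 ± 1.96, 2.48 ± 2.51 and 3.13 ± 1.90 RPM (SD, n = 5 each). Replicate 2 of day 120 was the highest of the 20 in both, with 8.89 and 6.73 RPM. limma called no difference between ages for either arm. At such low levels the 1 added to RPM before the logarithm makes fold changes smaller. The largest estimate in the main fit was -0.59 for the 3p arm from day 1 to day 60 (SE 0.47, limma adjusted p = 0.545). Over the refits it ran from -0.93 to -0.24. The 5p arm from day 1 to day 180 had 0.58 in the main fit and 0.27 to 1.10 over the refits, so which is largest depends on the setting.

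Ratios of the 2 arms of 1 hairpin do not depend on library scaling, and 3 hairpins allowed them. miR-146b favoured its 5p arm by a median of 59.5, 75.6, 88.5 and 73.8 to 1 at the 4 ages. miR-342 favoured its 3p arm by 165, 176, 267 and 204 to 1. miR-223 had neither arm favoured at all ages, with a median 5p to 3p ratio of 0.6, 0.75, 0.757 and 1.3. Few reads lie behind it: in day 60 replicate 3 the ratio was 12, from 24 reads against 2. On day 1 the ratio was 0.905, 0.231, 0.706, 0.6 and 0.545. On day 180 it was 5.25, 0.850, 0.882, 1.3 and 1.43, and the ages overlapped, since 0.850 and 0.882 lay below the highest newborn. The mean log2 ratio of miR-223 was -0.87 on day 1 and 0.57 on day 180, a difference of 1.45 (exact permutation test, two-sided, p = 0.0238, adjusted p = 0.0714 over 3 hairpins). It did not pass, and it rests on 3 to 52 reads per arm. With a pseudocount of 1 in both arms the difference was 0.89 (exact permutation, adjusted p = 0.0714). Without day 180 replicate 2 it passed, at 1.65 (exact permutation, adjusted p = 0.0476), and without day 180 replicate 1 it was 0.99 (adjusted p = 0.119). For miR-146b the difference was 0.60 (exact permutation, adjusted p = 0.357) and for miR-342 it was -0.54 (adjusted p = 0.5, exact permutation). The smallest p that 5 against 5 libraries allow is 0.00794.

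**Figure D4:**
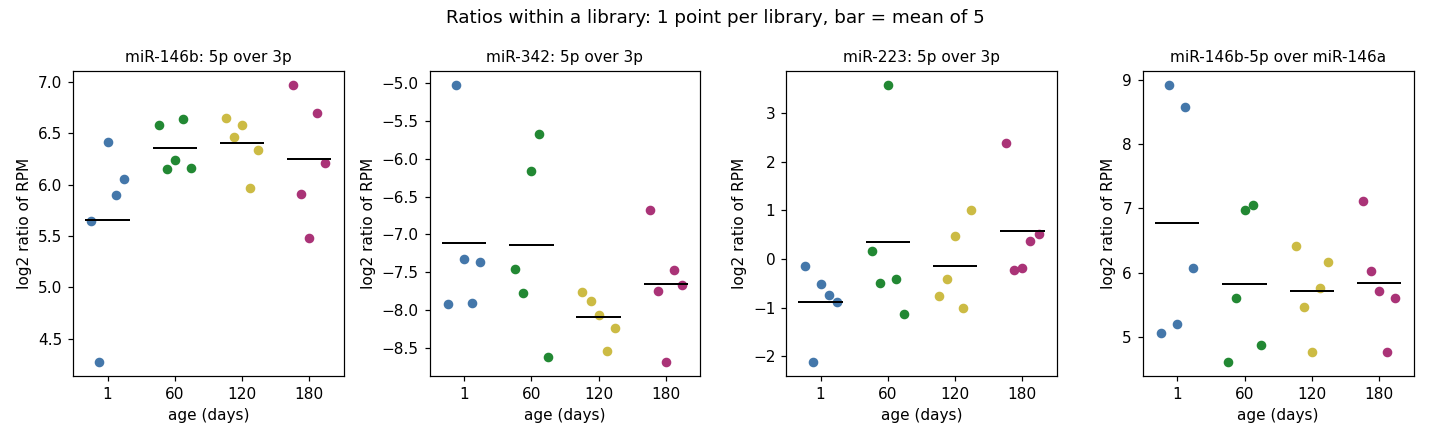
Log2 ratio of RPM within each library against age in days, for the arms of miR-146b, miR-342 and miR-223 and for miR-146b-5p over miR-146a. Points are libraries and bars are means of 5; day 1 replicate 2 is the lowest of its age for miR-146b and miR-223 and the highest for miR-342 and the paralog ratio.

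The arms of the other hairpins followed each other less closely than those of miR-146b. Relative to the mean of each age, r was 0.320 for miR-342 (permutation p = 0.0903, adjusted p = 0.0999) and 0.523 for miR-223 (permutation p = 0.058, adjusted p = 0.0999). The rho values were 0.367 (permutation p = 0.0894, adjusted p = 0.0894) and 0.474 (permutation p = 0.0641, adjusted p = 0.0855). Without the 2 libraries farthest from the median, r was 0.387 for miR-342 (permutation p = 0.114) and 0.226 for miR-223 (permutation p = 0.449). The differences between these correlations were not tested.

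The named miRNAs outside the set with the pattern most like each hairpin were found by Pearson's r of log2(RPM + 1) over the 20 libraries, given as a description. The points share their library, so miRNAs that are high in 1 unusual library resemble each other. miR-21-5p was most like miR-34a (r = 0.892) and the oligodendrocyte miRNA miR-219 (r = 0.850), both also highest in day 1 replicate 3, at 146 and 234 RPM. miR-146a was most like miR-126-5p of endothelium (r = 0.834) and miR-30d-3p (0.812). miR-146b-5p was most like miR-128-3p of neurons (r = 0.615) and miR-221-5p (0.584), both highest in day 120 replicate 1, as miR-146b-5p was. miR-150 was most like miR-485-5p (r = 0.726) and miR-1307-3p (0.694), both highest in day 1 replicate 2. miR-342-3p was most like miR-365-3p (r = 0.869) and miR-30c-5p (0.751), and miR-155-5p was most like miR-23b-5p (0.747) and let-7b-5p (0.744). miR-223-3p had the weakest matches, miR-107-3p (r = 0.562) and miR-494 (0.543).

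Other miRNAs linked to inflammation or innate immune signalling were read from a list of such miRNAs, and 20 rows of it were tested. limma called 0 of 20 in each of the 7 comparisons (lowest adjusted p = 0.0892), where it called from 0% to 3.86% of all tested miRNAs. Over the 4 ages 3 of 20 had an unadjusted p under 0.05, beside 16.9% of all tested miRNAs. edgeR with TMM called 1 of 20, for day 180 against day 1, beside 5.31% of all. On library size alone edgeR called 1 of 20, miR-99b-3p for day 60 against day 1 (adjusted p = 0.0441), beside 14.98% of all. DESeq2 called 1 over the 4 ages (21.7% of all), 1 for day 120 against day 1 (17.9% of all) and 2 for day 180 against day 1 (14.7% of all). The most abundant was miR-125b-5p, at 20523 ± 25032 RPM on day 1 and 13208 ± 7695 RPM on day 180 (SD, n = 5). From day 1 to day 180, 11 of 20 had a positive log2 fold change, beside 37.4% of all tested miRNAs. The list's median was 0.04, beside -0.25 over all 414 miRNAs. Whether the list differs from the other miRNAs was not tested. miR-147, which is induced by Toll-like receptor signals in macrophages, is named after its values were seen. Its 3p arm measured 3.40 ± 2.49 RPM on day 1 and 8.51 ± 2.32 on day 180 (SD, n = 5; log2 fold change 1.25, SE 0.42, limma adjusted p = 0.0892). Its 5p arm measured 1.73 ± 0.796 and 4.796 ± 1.86 RPM (1.07, SE 0.39, adjusted p = 0.118). For day 180 against day 1, edgeR with TMM gave miR-147-3p an adjusted p of 0.0418 and miR-147-5p one of 0.0684. On library size alone edgeR gave 0.103 for the 3p arm and 0.0900 for the 5p arm, and neither was called. DESeq2, with its larger share of calls over all miRNAs, gave 0.0122 and 0.0256.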

How the data were processed

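Small RNA of goat hypothalamus was extracted with Trizol and made into libraries with a NEBNext small RNA kit, per the labels' protocols. The authors deposited 1 value per miRNA and library in columns named TPM. Each column of the deposited table sums to between 999984 and 1000000 and steps in whole reads, so the authors' values were read as RPM, the reads of a miRNA divided by all miRNA reads of the library and scaled to 1000000. Bowtie is the tool in the submitters' processing notes; no source used here gives its version, the genome build or the miRNA annotation. The members and lists were chosen with earlier results of these data known. limma with a trended prior was fitted to log2(RPM + 1) of the 414 miRNAs with at least 1 RPM in at least 5 libraries, all 20 libraries in 1 fit, with Benjamini-Hochberg adjustment. The fit was tested on simulated data. edgeR, DESeq2, other scalings, pseudocounts, filters and left-out libraries were alternatives. Arm ratios were compared by exact permutation tests, and correlations by 100000 permutations within age. All members are named; miRNAs most like a member were those with the highest Pearson's r. The naming of seed partners was not carried out, since no mature sequence was used here. Replicate numbers were not treated as pairs: between same-numbered libraries, the mean correlation of deviations from the age mean ran from -0.12 to 0.14.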

Additional observations from a re-analysis of the deposited data

Results flagged for a closer look

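In 9 of the 40 groups of 5 libraries formed by the 10 members and 4 ages (22.5%), 1 library lay far above the other 4 by Dixon's criterion, and in none did 1 lie far below. The criterion is set to mark about 5% of groups of normally distributed values, which RPM values need not be. Over all tested miRNAs the share was 14.49%, with 229 groups marked for a high library and 11 for a low one. Day 1 replicate 3 held 53369.9 RPM of miR-21-5p, where the other newborns reached 8337. Day 1 replicate 4 held 4143 RPM of miR-146b-5p, against at most 1160.2 in the other newborns. Day 1 replicate 2 held 1498 RPM of miR-150 and 50.02 RPM of miR-342-5p, against at most 329.6 and 6.45. That library was high in 19.8% of all tested miRNAs. Day 120 replicate 1 held 7208 RPM of miR-146b-5p, 71.8 RPM of miR-146b-3p and 84.2 RPM of miR-146a, so the 3 members of the miR-146 family were high together there. It was high in 3.62% of all tested miRNAs. Day 120 replicate 2 held 8.89 RPM of miR-223-3p, and in the same library miR-451-5p of red cells was highest of its age, at 1325 RPM. The part of blood in that value was not tested. Day 180 replicate 3 held 271 RPM of miR-155-5p, against 118 to 139 in the other 4.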

How the results depend on the processing

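The 70 member results include 10 tests over the 4 ages, which have no direction and could change only in side of the threshold. Of 2279 refits of the 70, 2194 kept the side of the threshold and, where they had a direction, the direction. In 84 the sign of a value that was not called changed, 53 of them on leaving out 1 library, and 1 refit made a call. That one was miR-146a for day 120 against day 1 under quantile scaling, which took the count of members called there from 0 to 1. The cause was not tested. With the replicate number as a replicate block, limma called 0 of 10 members in each of the 7 comparisons. The arm differences of miR-146b, miR-342 and miR-223 in the block are 0.60, -0.54 and 1.45, which pairing cannot move in a balanced design, and exact sign changes of 5 pairs cannot give a p below 0.0625, so no call was possible there (adjusted p = 0.375, 0.562 and 0.188). Of 20 libraries, 4 had a library of their own number as the closest among those of the other ages. With 5 numbers in each age, random matching would give a like count. Leaving out each library in turn, the count of members called stayed at 0, and the arm differences ran from 0.25 to 0.79 for miR-146b, from -0.78 to -0.02 for miR-342 and from 0.99 to 1.65 for miR-223. For quantile scaling, the block and the left-out libraries, the share called over all miRNAs is not given here. The counts of members called there therefore say nothing particular of the members. Without centring by age, 1 member was related to miR-451-5p (miR-21-5p, r = 0.667, permutation adjusted p = 0.0167). A filter at 10 RPM gave no value for miR-342-5p and both arms of miR-223. Counts of under 10 reads occurred for miR-21-3p, both arms of miR-223 and miR-146a, and limit their values in those libraries.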

Other observations

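Single libraries combined high and low members in different ways, and these values were picked after they were seen. Day 180 replicate 3 had the lowest miR-150 of the 20 libraries, at 19.5 RPM, and at the same time the highest miR-342-3p, at 2262 RPM. Day 120 replicate 1 had the highest miR-146a and miR-146b-5p of the 20, at 84.2 and 7208 RPM, and the lowest miR-155-5p, at 68.1 RPM. Its miR-150, at 84.5 RPM, was the lowest of its age. Whether these members move against each other was not tested.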
